A study of Populus trichocarpa with 15 samples.

Results

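Chromosome 19 of the black cottonwood *Populus trichocarpa* carried 1439 of the 55335 open-chromatin regions found in leaves of 2 wild individuals, labelled as trees 13, 14 and 4. These regions were all the peaks listed on chromosome 19 in 14 ATAC-seq libraries, merged wherever peaks overlapped or touched. Chromosomes 1 to 18 held 53759 regions, and the remainder lay on sequences outside the 19 chromosomes. Chromosome 19 was the most sparsely marked chromosome in each of the 14 libraries, and its peaks were unevenly spread along it, with few in the first 2 Mb and near the centre and many in the last 4 Mb.

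In ATAC-seq, a transposase inserts sequencing adapters into DNA that is not tightly packed, and a peak is a stretch with more insertions than its surroundings. In plants, such stretches usually lie at promoters and at other regulatory sequence, while gene-poor chromatin rich in repeats is mostly closed. Poplars have separate male and female trees, and in *P. trichocarpa* chromosome 19 carries the region that determines sex, near one of its ends. Which end that is in the coordinates used here was not determined, and the sexes of the trees were not used.

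Each library came from leaves of 1 branch of a tree growing wild in Oregon, frozen after collection, with no treatment. Trees 13 and 14 are both stems of 1 individual, and gave 5 libraries each. Tree 4 is another tree, and gave 4 libraries. Branches are therefore replicates within 2 individuals, and p-values below describe the spread among these branches and not among poplars or among chromosomes. The labels give neither the age nor the sex of a branch, and the lists hold no marker by which leaf tissue could be checked. The peak lists held from 12801 peaks in branch 13.5 to 39694 in branch 14.3. Read depth was unknown, and the absence of a call is no evidence of closed chromatin.

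The first question was how densely chromosome 19 was marked. The lists placed 673, 911, 573, 534 and 250 peaks on it in branches 13.1 to 13.5. In branches 14.1 to 14.5 it had 759, 589, 949, 712 and 464 peaks. Tree 4 contributed 545, 448, 746 and 720 peaks from branches 4.2 to 4.5. Branch 13.5 was lowest and branch 14.3 highest, as in the whole lists, and the 3 trees overlapped. Taking the end of its last peak, at 15.94 Mb, as its length, chromosome 19 had 39.8 ± 11.7 peaks per Mb, against 71.5 ± 18.3 peaks per Mb on chromosomes 1 to 18 (SD, n = 14). Between libraries it spanned 15.7 to 59.5 peaks per Mb, against 33.3 to 103 on the other chromosomes. The ranges overlapped across libraries of unlike list length, but within every library chromosome 19 was below the others. The log2 ratio within a library was -0.86 ± 0.08 (SD, n = 14), or 0.549-fold, and was below 0 in 14 of 14 libraries. An exact sign-flip permutation test gave p = 0.000122, the smallest that 14 libraries allow, and the adjusted p over 7 tests of this kind was also 0.000122.

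**Figure D1:**
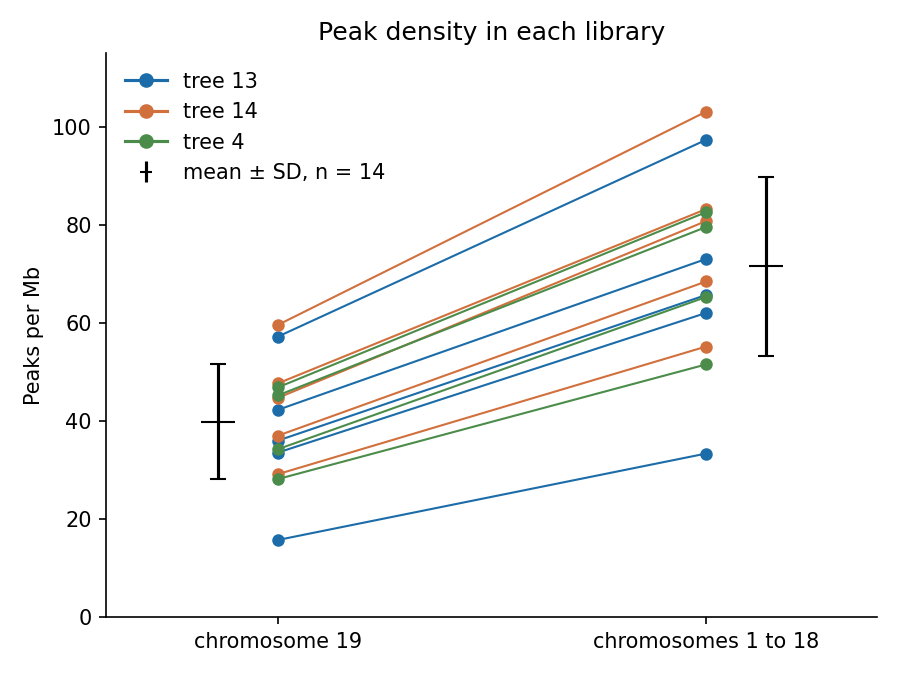
Peaks per Mb (vertical axis) on chromosome 19 and on chromosomes 1 to 18 pooled, with 1 line for each of the 14 libraries, coloured by tree, and black bars for the mean and SD. Every line runs lower on chromosome 19, whose mean was 39.8 peaks per Mb against 71.5 on the other chromosomes.

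No single neighbour in the ranking matched it. The next sparsest chromosome in a library was chromosome 11 in 11 libraries and chromosome 17 in 3, and chromosome 19 had 0.824 ± 0.030 times its density (SD, n = 14), with a range of 0.781 to 0.883. Leaving out either the sparse centre or the first end did not lift chromosome 19 from last place. The 2 stretches were not left out together, and the other chromosomes kept their own sparse parts. Without 6.0 to 8.0 Mb the log2 ratio was -0.69, without the first 2 Mb it was -0.77, and in both cases chromosome 19 stayed the sparsest of the 19 chromosomes in 14 of 14 libraries. These 2 settings were chosen after the values had been seen.

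Peaks on chromosome 19 were also slightly narrower and ranked lower in significance. They covered 9.56 ± 2.69 bp per kb of chromosome 19 and 18.1 ± 4.48 bp per kb of chromosomes 1 to 18 (SD, n = 14), a log2 ratio of -0.94 ± 0.08. Median peak width was 212 ± 25 bp on chromosome 19 and 218 ± 27.9 bp elsewhere (SD, n = 14), a log2 ratio of only -0.04 ± 0.03. The score in the lists, which follows the -log10 q-value of the peak caller, was ranked within each list as a percentile. The median peak of chromosome 19 stood at percentile 45.8 ± 1.69 and that of chromosomes 1 to 18 at 49.9 ± 0.318 (SD, n = 14), a difference of -4.07 ± 1.72 points. All 3 differences pointed the same way in 14 of 14 libraries (exact sign-flip permutation test, p = 0.000122 each, adjusted p = 0.000122).

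The deficit was larger among stronger peaks. With the most significant 50% of each list, chromosome 19 had a log2 density ratio of -0.99. With peaks of a -log10 q of at least 10 the ratio was -1.16, or 0.448-fold. Those strong peaks numbered 26 to 171 per library on chromosome 19, which was 1.88% ± 0.243 of the strong peaks on the 19 chromosomes. Over all peaks its share was 2.28% ± 0.122 (SD, n = 14). The differences between these settings were not tested.

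Longer lists gave chromosome 19 a larger share. Across the 14 libraries the share of peaks on chromosome 19 and the number of peaks in the list had a Pearson correlation of 0.877 (permutation test, p = 1e-05, the smallest that 100000 resamples allow) and a Spearman correlation of 0.833 (permutation test, p = 0.00041). Leaving out branches 13.5 and 14.3, the shortest and the longest list, Pearson's r was 0.804 over 12 libraries. With values centred within each tree, a check added after the values had been seen, Pearson's r was 0.885 (exact permutation test within trees, p = 0.000188) and Spearman's rho 0.920 (same exact permutation test, p = 0.000341). No other relation across libraries was computed. When every list was limited to its 12801 most significant peaks, the share ranged from 1.96% to 2.22%, against 1.96% to 2.43% in the full lists.

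Merged over libraries, chromosome 19 had 90.3 regions per Mb, against 143 on chromosomes 1 to 18 together. It held 2.61% of the regions of the 19 chromosomes on 4.08% of their length. Among the other chromosomes, regions per Mb ran between 100 on chromosome 11 and 192 on chromosome 9. The median width of a region was 230 bp on chromosome 19 and 253 bp on chromosomes 1 to 18, where single chromosomes had medians of 236 to 265 bp.

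The second question was how many of these regions were shared by all branches. On chromosome 19, 187 regions were called in all 14 libraries, which was 13% (95% Wilson interval 11.4% to 14.8%), against 9535 regions or 17.7% on chromosomes 1 to 18. A further 423 regions, or 29.4% (27.1% to 31.8%), were called in 1 library only, against 23.8% on chromosomes 1 to 18. Intervals here cover counting error only, and neighbouring regions are not independent. No other chromosome had a lower share called in all 14 or a higher share called once. Their shares called in all 14 lay between 14.1% on chromosome 17 and 19.9% on chromosome 8, and their shares called once between 22.1% on chromosome 8 and 26.5% on chromosome 13. Because a region is defined from all libraries together, these shares were described and not tested.

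**Figure D2:**
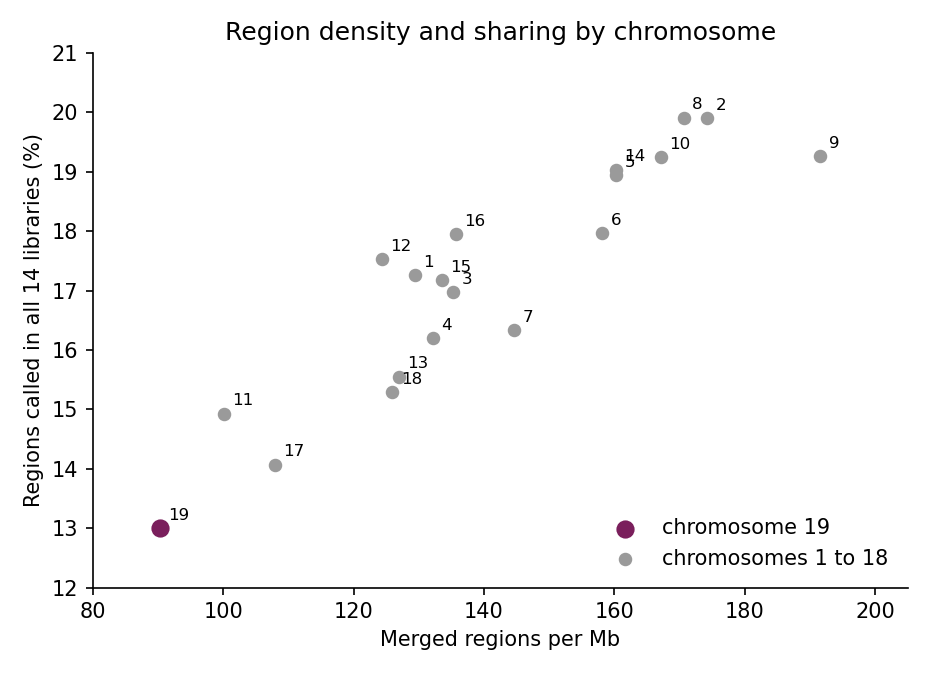
Share of regions called in all 14 libraries (vertical axis, %) against merged regions per Mb (horizontal axis), with 1 numbered point per chromosome. Chromosome 19, at 90.3 regions per Mb and 13%, is lowest on both axes, and chromosomes 17 and 11 lie nearest to it.

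Shared regions were much wider than those called once, and in this chromosome 19 was like the rest. Merging itself favours this, because a region spans the peaks of every library that calls it. The 187 shared regions had a median width of 472 bp on chromosome 19, against 484 bp on chromosomes 1 to 18, and regions called once had a median of 122 bp on chromosome 19 and 121 bp on chromosomes 1 to 18. The distribution over libraries was U-shaped, with 159 regions called in 2 libraries, between 46 and 85 regions at each count from 3 to 13, and 187 regions at 14. Seen from single libraries, 33.9% ± 13.7 of the peaks on chromosome 19 and 40.0% ± 12.9 of those on chromosomes 1 to 18 fell in regions called in all 14 (SD, n = 14). This share was lower on chromosome 19 in 14 of 14 libraries, with differences of -7.99 to -1.88 percentage points. Branch 13.5, with the shortest list, stood apart at 75.2%, against 77.1% on chromosomes 1 to 18, and without it 246 regions were called in all remaining libraries.

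The most significant shared regions are given as examples. The highest, at chr19:13640086-13640523, was 437 bp wide and had a -log10 q of 39.1, 37.1, 29.1, 22.4 and 20.8 in branches 13.1 to 13.5. In branches 14.1 to 14.5 its values were 31.7, 17.1, 41.2, 24.9 and 26.4, and in branches 4.2 to 4.5 they were 28.7, 29.1, 31.3 and 29.2. The trees overlapped, and by mean score percentile it ranked 27 among the 9722 regions of the 19 chromosomes that were called in all 14 libraries. The next, at chr19:2934686-2935085, had a -log10 q of 25.7 ± 6.12 (SD, n = 14) and lay in window 6 when the chromosome is cut into windows of 500 kb, outside the sparse first 2 Mb. Close to the first, chr19:13668960-13669411 had 25.2 ± 4.6 (SD, n = 14). Width and significance did not go together in every case. The widest region, chr19:10346159-10347495, spanned 1336 bp and was called in all 14 libraries, with a -log10 q of only 4.50 ± 1.35 (SD, n = 14) and peak widths of 278 to 1285 bp between libraries.

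At the tips, calls were few. The first region, chr19:42158-42261, was called only in branches 13.2 and 14.3, the longest lists. The last, chr19:15941336-15941560, was called only in branches 4.4 and 4.5. Coordinates are as the lists give them. Their genome build is not stated in the sources at hand, so no sequence or gene is assigned to a region.

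Along the chromosome, peaks were counted in windows of 500 kb, numbered from the low-coordinate end. The 31 complete windows held 1 to 90 regions with a median of 42, against a median of 74 in the 741 complete windows of chromosomes 1 to 18, which held 0 to 166. Of the 31 windows, 26 (83.9%) had fewer regions than the median window elsewhere. Windows under 21 regions, the lowest 9.99% of those elsewhere, made up 6 of 31 (19.4%) on chromosome 19. Its densest window still reached above 65.7% of the windows elsewhere.

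The last 4 Mb were the densest part. Window 31, from 15.0 to 15.5 Mb, held 90 regions and 7.16% ± 0.811 of a library's peaks on chromosome 19 (SD, n = 14), with 19 to 64 peaks per library. Window 26, from 12.5 to 13 Mb, held 86 regions and 6.28% ± 0.784, and window 29, from 14 to 14.5 Mb, held 80 regions and 6.17% ± 0.591 (SD, n = 14). These had the highest mean shares, but window 25, from 12 to 12.5 Mb, held 88 regions and 6.16% ± 0.652 (SD, n = 14), which differed from window 29 by far less than the spread. From 12 Mb to the end, 24.7% of the length held 39.1% of the regions and 41.7% ± 1.26 of the peaks (SD, n = 14). That stretch, chosen after its values had been seen, had 143 regions per Mb, against 73.0 before it and 143 on chromosomes 1 to 18. Within it, window 27, from 13 to 13.5 Mb, was an exception that was also chosen after its values had been seen. It held 14 regions, none called in all 14 libraries, and 0 to 7 peaks per library, between neighbours with 86 and 80 regions.

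The sparsest windows lay together near the centre. Window 14, from 6.5 to 7.0 Mb, held 1 region, which was called in 10 libraries and in none of branches 13.4, 13.5, 14.5 and 4.3. Window 15, from 7.0 to 7.5 Mb, held 5 regions and 1 to 4 peaks per library, and window 16, from 7.5 to 8.0 Mb, held 8 regions and 0 to 6 peaks. Together the 2 Mb from 6 to 8 Mb had 28 regions, 2 of them called in all 14 libraries. The widest gap between neighbouring regions of chromosome 19, 494 kb, ran through this stretch from position 6478920 to position 6973084. It was only the 8th widest when each chromosome is represented by its widest gap, and the median gap was 4.25 kb on chromosome 19 against 3.21 kb elsewhere. At the ends, window 1 held 16 regions and 0.686% ± 0.240 of the chromosome's peaks, while the incomplete window 32 held 71 regions and 5.24% ± 0.323 (SD, n = 14).

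**Figure D3:**
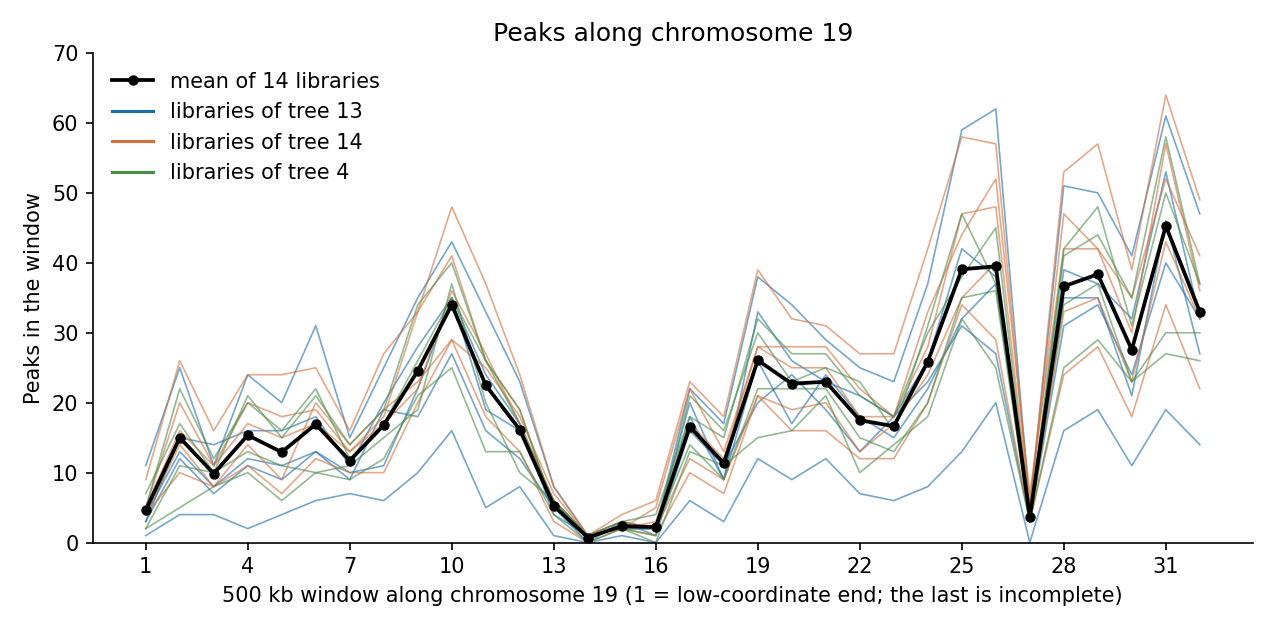
Peaks in each 500 kb window of chromosome 19 (vertical axis) against window number from the low-coordinate end (horizontal axis), with thin lines for the 14 libraries coloured by tree and a black line for their mean. The libraries share the trough at windows 14 to 16, the drop at window 27 and the high windows 25, 26, 28, 29 and 31.

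The profile was alike in all libraries. Over the 32 windows, the 91 pairs of libraries had Pearson correlations of 0.912 to 0.986 with a median of 0.959. These are correlations over windows of 1 chromosome, which all libraries share, and are given as a description.

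The ends were then compared with the middle. Within 2 Mb of either end chromosome 19 had 49.0 ± 14.7 peaks per Mb, against 36.6 ± 10.8 in its middle (SD, n = 14), a log2 ratio of 0.42 ± 0.05 that was above 0 in 14 of 14 libraries (exact sign-flip permutation test, p = 0.000122, adjusted p = 0.000122). On chromosomes 1 to 18 pooled the same ratio was 0.19 ± 0.02, and chromosome 19 exceeded it by 0.23 ± 0.05 in 14 of 14 libraries (same exact permutation test, p = 0.000122, adjusted p = 0.000122). Single chromosomes varied far more. Their mean density at the ends ran from 0.638 times that of the middle on chromosome 8 to 2.16 times on chromosome 13. Chromosome 19, at 1.34 times, ranked only 8th of the 19. With ends of 20% of the chromosome in place of 2 Mb, the excess over chromosomes 1 to 18 was 0.0659 (same exact permutation test, p = 0.00305). Neither excess held among strong peaks. With a -log10 q of at least 10, the log2 ratio of ends to middle was -0.08 (exact sign-flip permutation test, p = 0.236). With the same peaks, the ratio relative to chromosomes 1 to 18 was -0.16 (same exact permutation test, p = 0.0287).

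The excess at the ends came from 1 end. The first 2 Mb had 24, 35.5, 18.5, 16.5 and 5.50 peaks per Mb in branches 13.1 to 13.5. Branches 14.1 to 14.5 had 26, 20, 37.5, 26.5 and 16.5 there, and branches 4.2 to 4.5 had 18, 12.5, 27.5 and 29.5. The last 2 Mb had 81, 105, 68, 68.5 and 33 in branches 13.1 to 13.5. In branches 14.1 to 14.5 this end had 87, 70.5, 109, 86.5 and 54.5, and in branches 4.2 to 4.5 it had 63.5, 55.5, 90.5 and 86.5. Within each library the first end was far below the last, with means of 22.4 ± 8.78 and 75.6 ± 20.6 peaks per Mb (SD, n = 14). The log2 ratio of low to high end was -1.83 ± 0.28, or 0.281-fold, below 0 in 14 of 14 libraries (exact sign-flip permutation test, p = 0.000122, adjusted p = 0.000122). Among peaks with a -log10 q of at least 10, the first 2 Mb held 33 over all 14 libraries, with none in 4 libraries, and the last 2 Mb held 269, so this ratio could not be computed for every library.

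**Figure D4:**
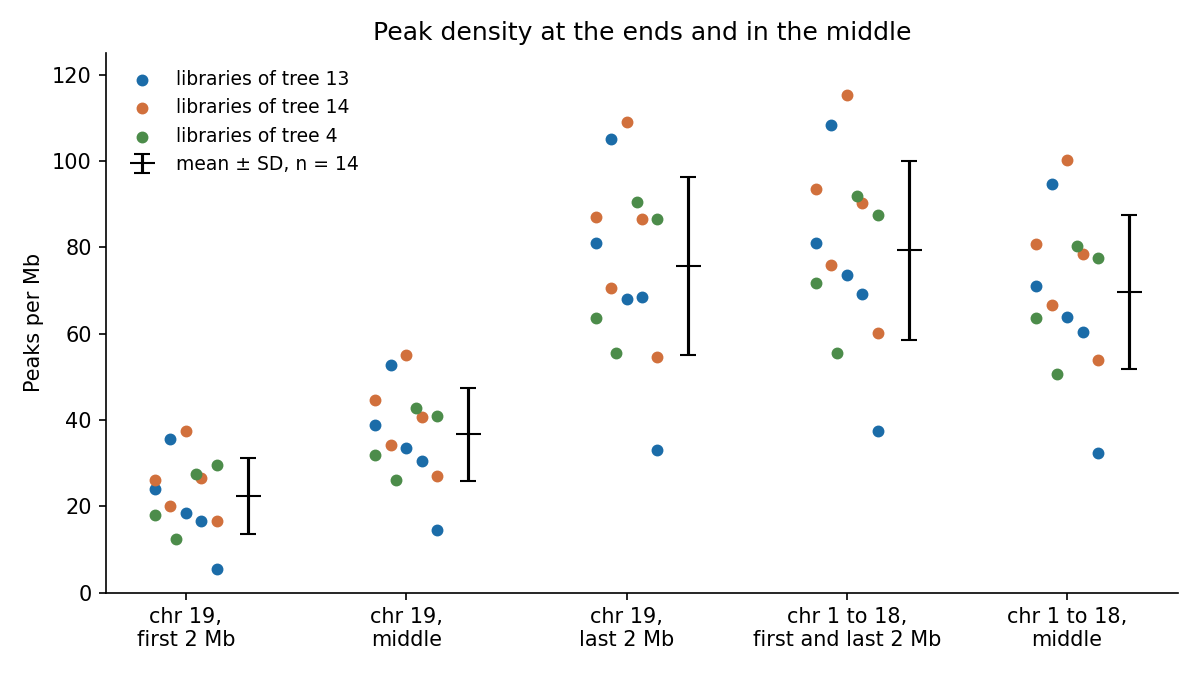
Peaks per Mb (vertical axis) in the first 2 Mb, the middle and the last 2 Mb of chromosome 19, and in the ends and the middle of chromosomes 1 to 18, with 1 point per library coloured by tree and black bars for the mean and SD. Means on chromosome 19 were 22.4, 36.6 and 75.6 peaks per Mb, against 79.4 at the ends and 69.6 in the middle of the other chromosomes.

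Set against the same kind of segment elsewhere, the parts of chromosome 19 differed in how far they fell short. These 3 tests were added after the values had been seen, and are adjusted among themselves. The first 2 Mb had 0.267 times the density at the ends of chromosomes 1 to 18, a log2 ratio of -1.90 ± 0.30 (exact sign-flip permutation test, p = 0.000122, adjusted p = 0.000183). The middle had 0.520 times the density of the other middles, a log2 ratio of -0.94 ± 0.08 (same exact permutation test, p = 0.000122, adjusted p = 0.000183). Both were lower in 14 of 14 libraries. The last 2 Mb came within 0.949 times of the other ends, a log2 ratio of -0.08 ± 0.06 that was below 0 in 12 of 14 libraries (same exact permutation test, p = 0.000488, adjusted p = 0.000488).

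Such asymmetry was not confined to chromosome 19. Its larger end had 3.37 times the density of its smaller end, the 4th largest ratio of the 19 chromosomes. The largest was 12.3, on chromosome 14. Only chromosome 10 had a sparser low-coordinate end, with 22.1 peaks per Mb. The high-coordinate ends of chromosomes 14 and 8 were sparser still, with 10.1 and 12.7 peaks per Mb.

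The share of regions called in all libraries was then taken by segment. Of 117 regions in the first 2 Mb, 9 were called in all 14 libraries, or 7.69% (95% Wilson interval 4.10% to 14%). In the middle it was 132 of 1012, or 13% (11.1% to 15.3%), and in the last 2 Mb 46 of 310, or 14.8% (11.3% to 19.2%). The intervals overlapped. On chromosomes 1 to 18 the shares were 17.3% at the ends and 17.8% in the middle. Each segment of chromosome 19 had a lower share than the same kind of segment there. As above, the intervals cover counting error only, and neighbouring regions are not independent. The shares by segment were therefore described and not tested.

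The third question was whether the trees differed. The share of a library's peaks that lay on chromosome 19 was 2.26% ± 0.187 in tree 13 and 2.30% ± 0.0856 in tree 14 (SD, n = 5 each), a difference of -0.0387 percentage points (exact permutation test, p = 0.770, adjusted p = 0.999 over 8 tests). Branch 13.5 was lowest at 1.96%, and without it the difference was 0.0367. Trees 13 and 14 together had 2.28% ± 0.138 (SD, n = 10), against 2.29% ± 0.0844 in tree 4 (SD, n = 4), a difference of -0.0067 (exact permutation test, p = 0.975, adjusted p = 0.999). This sign turned when any of branches 13.5, 14.5, 4.4 or 4.5 was left out, with values from 0.00304 to 0.0289. Tree 13 ranged from 1.96% to 2.43%, tree 14 from 2.19% to 2.40% and tree 4 from 2.18% to 2.36%, so all 3 overlapped.

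**Figure D5:**
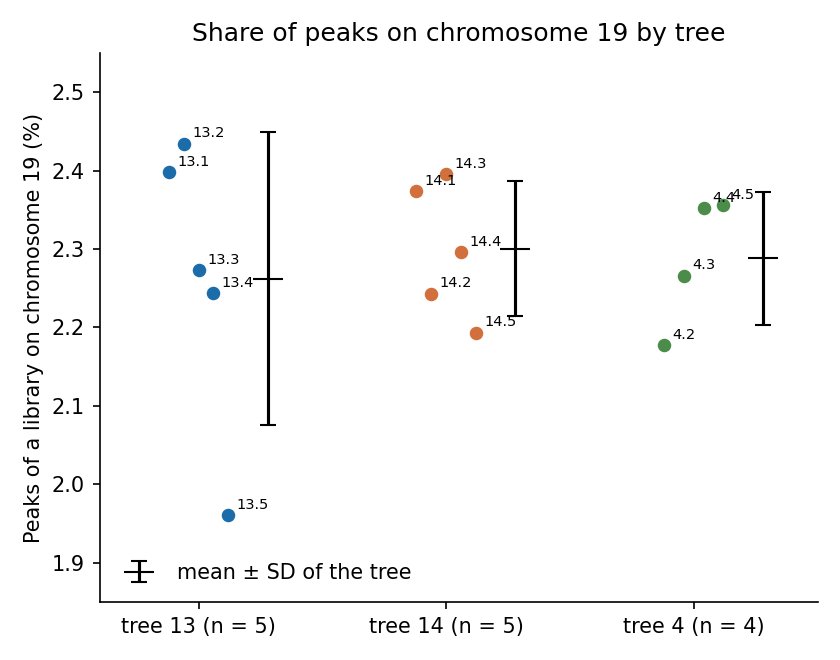
Percentage of a library's peaks on the 19 chromosomes that lay on chromosome 19 (vertical axis, not starting at 0) by tree, with 1 labelled point per branch and black bars for the mean and SD of the tree. The trees overlap, and branch 13.5 at 1.96% is lowest.

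Covered length and the distribution along the chromosome gave no difference past the test either. The share of covered length was 2.15% ± 0.171 in tree 13 and 2.18% ± 0.0597 in tree 14 (SD, n = 5 each), and the log2 ratio of ends to middle was 0.42 ± 0.04 in tree 13 and 0.41 ± 0.05 in tree 14. Low against high end gave the largest difference, with log2 ratios of -1.97 ± 0.39 in tree 13 and -1.71 ± 0.10 in tree 14 (SD, n = 5 each), a difference of -0.26 (exact permutation test, p = 0.167, adjusted p = 0.999). Without branch 13.2 this difference was -0.36 (exact permutation test, p = 0.0317, not adjusted), and without branch 13.5, whose first 2 Mb held 11 peaks, it was -0.11. For trees 13 and 14 against tree 4 the same 3 measures differed by -0.0199 percentage points, -0.01 and -0.03 (exact permutation tests, p = 0.881, 0.709 and 0.999, adjusted p = 0.999 each). The signs of these small differences turned when single libraries were left out (branches 13.5, 4.4 or 4.5 for trees 13 and 14 against tree 4; branches 13.5 or 14.1 for tree 13 against tree 14).

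Single windows were compared as well, an analysis added after the values had been seen. Among the 31 complete windows, 0 passed at an unadjusted p under 0.05 for tree 13 against tree 14, where 5.05% of all 772 windows did so. For trees 13 and 14 against tree 4, 2 of 31 did (6.45%), where 5.70% of all windows did so. Adjusted over all windows, 0 passed in either comparison (exact permutation tests, smallest adjusted p on chromosome 19 of 0.888 and 0.872).

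Region by region, tree 14 called the most on chromosome 19 and on the others alike. On chromosome 19, 1060 regions (73.7%) were called in at least 1 library of tree 13, 1156 (80.3%) in tree 14 and 937 (65.1%) in tree 4. On chromosomes 1 to 18 these shares were 76.3%, 84.2% and 70.6%. All 3 trees called 738 regions, or 51.3%, against 58.2% on chromosomes 1 to 18. Regions called in tree 13 alone numbered 164 (11.4%, against 8.32% on chromosomes 1 to 18), in tree 14 alone 218 (15.1%, against 13.5%) and in tree 4 alone 81 (5.63%, against 5.26%). Few of them were called in 2 or more branches, with 13 regions for tree 13 (0.903%, against 0.740%), 25 for tree 14 (1.74%, against 2.19%) and 2 for tree 4 (0.139%, against 0.385%). None was called in every library of 1 tree and in no other library.

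Of 221 regions on chromosome 19 that could reach an unadjusted p under 0.05 for tree 13 against tree 14, 0 passed Fisher's exact test after adjustment over all 9042 such regions of the genome, where 0% were called. Unadjusted, 10 regions (4.52%) were under 0.05, where 3.04% of all tested regions were. By direction, 1 was called more often in tree 13, where 0.21% were, and 9 more often in tree 14, where 2.83% were. Tree 14 also had the longer lists on average. For trees 13 and 14 against tree 4, 0 of 476 passed after adjustment over 18615 regions, where 0% were called. Unadjusted, 4 (0.84%) were under 0.05, where 0.994% of all were. Among these, 1 was called more often in trees 13 and 14, where 0.435% were, and 3 more often in tree 4, where 0.559% were. At 5 against 5 libraries the smallest p that Fisher's exact test can give is 0.00794, so 1436 regions of the genome would have had to reach it for any to pass adjustment, and 13 did. For 10 against 4 the smallest is 0.000999, and 372 regions would have been needed, where 3 reached it. The counts of 0 after adjustment therefore say little about differences at single regions. Leaving out a library changes which splits of calls can reach a p under 0.05, so a moved count cannot be assigned to that library. The counts without adjustment moved when single libraries were left out. The first was 23, 31, 19, 17 and 31 without branches 13.1, 13.2, 14.2, 14.4 and 14.5, and the second was 0 to 2 without any of branches 13.1, 13.3, 13.4, 14.1, 14.2, 14.3, 14.4 or 14.5 and 8 without branch 4.3.

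All 10 regions for tree 13 against tree 14 tied at the same p, and those described here are the ones with the highest score percentile in each direction. Averaged over the libraries that called them, the scores of the 10 stood at percentiles 14.6 to 52.5 of their lists. The region chr19:9313703-9314036 was called in 4 branches of tree 13, in none of tree 14 and in 1 of tree 4, with a -log10 q of 2.64 to 5.48 where it was called. In the other direction, chr19:2419283-2419461 was called in 1 branch of tree 13, in all 5 of tree 14 and in none of tree 4, with a -log10 q of 4.39 to 7.75. Both chr19:15257486-15257683 and chr19:4887145-4887362 were also called in 1 branch of tree 13 and in 5 of tree 14, and tree 4 called them in 1 and in 3 branches. Like the other tied regions, each had an unadjusted p of 0.0476 by Fisher's exact test (adjusted p = 1). In the 3 regions named as called more often in tree 14 the branch of tree 13 was 13.2, which had the longest list of that tree.

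Between the individuals, chr19:2551695-2552073 was called in 9 of the 10 libraries of trees 13 and 14 and in 1 of the 4 of tree 4, missing from branch 13.5. Its -log10 q was 2.87 to 6.83. In the other direction, chr19:14111757-14112042, chr19:15486135-15486337 and chr19:2396951-2397243 were each called in 1 of 10 libraries of trees 13 and 14 and in 3 of 4 libraries of tree 4. Each of these 4 had an unadjusted p of 0.0410 (Fisher's exact test, adjusted p = 1), and their mean -log10 q lay between 3.72 and 4.00.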

How the data were processed

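ATAC-seq peaks were analysed from 14 leaf libraries, each assigned to a tree by its title. The authors deposited 1 peak list per library, with peak start and end, a score, a −log10 p-value and a −log10 q-value. The submitters' processing notes name Trimmomatic 0.36, Bowtie 1.1.1 and MACS2 2.1.2. Not given in the sources used here are the build, any shift of reads for the transposase and whether starts count from 0 or 1. In each list, at least 99.9766% of the deposited scores equalled 10 times the −log10 q-value with decimals cut off. Peak lists give no counts, so read depth and its error are unknown. The lowest −log10 q in a list was 2.00 to 2.05, and the narrowest peak was 90 to 159 bp.

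Overlapping or touching peaks were merged. A library called a region in which any base of its peaks fell, and midpoints assigned peaks to segments and windows. Chromosome 19 was compared with chromosomes 1 to 18 within each library by two-sided exact permutation of signs (16384 arrangements), trees by two-sided exact permutation (252 or 1001 arrangements), and regions by two-sided Fisher's exact test over the whole genome, each with Benjamini-Hochberg adjustment. The tests were checked on simulated data. The members, lists and tests were chosen with earlier results of these data known. Named regions were the 3 shared regions with the highest mean score percentile, the widest, the first and the last region, and up to 3 per direction of each tree comparison with the lowest unadjusted p, ties going to the higher score percentile. Named windows were the 3 with the highest and the 3 with the lowest mean share of a library's chromosome 19 peaks, and those at the ends. The alternatives were stricter peak sets, lists of equal length, a 50% overlap, other ends and windows, each library left out, a set without branches 13.4 and 14.1, and a replicate block. Numbers shared by branches of trees 13 and 14 did not pair them. The library titled 1.1 was left out of all comparisons because its peak names give another tree. Software was scipy 1.17.1, pandas 2.3.3 and numpy 2.4.6 in Python 3.11.15, with plots from matplotlib 3.10.9.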

Additional observations from a re-analysis of the deposited data

Results flagged for a closer look

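The library titled 1.1, which entered no comparison, had 27009 peaks, 606 of them (2.25%) on chromosome 19. Of these, 14 (2.31%) overlapped none of the 1439 regions of the other 14 libraries, above the 3 that a count of 0 allows. Such a number was not unusual. Each of the other 14 libraries had 0 to 85 peaks on chromosome 19 in regions that no other of them called. The mean was 30.2, or 4.08% of a library's peaks there. In the library titled 1.1, the peaks without overlap had a median -log10 q of 2.64, against 5.48 for the peaks that overlapped a region. Dixon's test for outlying values singled out no library in 27 sets of values (9 measures in each of 3 trees). With 4 or 5 libraries in a set, that test can find only a very distant value. Its result does not show that the libraries were alike.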

How the results depend on the processing

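Every comparison of chromosome 19 with chromosomes 1 to 18 or between its own parts kept its direction and its side of the threshold in 144 of 146 recomputations. The exceptions, both with a -log10 q of at least 10, were the ends against the middle (-0.0803) and the same relative to chromosomes 1 to 18 (-0.162). Leaving out each library in turn moved density between -0.87 and -0.85, covered length between -0.94 and -0.92, score percentile between -4.30 and -3.85, width between -0.043 and -0.036, ends against middle between 0.41 and 0.42, its excess over other chromosomes between 0.22 and 0.24, and low against high end between -1.85 and -1.77. The low against high end comparisons could not be run with a -log10 q of at least 10.

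The tree comparisons, none past adjustment, changed sign in 28 of 146 recomputations. For ends against middle, tree 13 minus tree 14 was -0.0431 with a -log10 q of at least 10, -0.0125 with lists of equal length, -0.0143 with peaks of at least 159 bp, -0.0153 without branches 13.4 and 14.1, -0.00475 with ends of 1 Mb and -0.00341 with ends of 20% of the chromosome. Trees 13 and 14 minus tree 4 was 0.0698, 0.0541, 0.105 and 0.0264 with the most significant 50% of each list, lists of equal length, ends of 1 Mb and ends of 20% of the chromosome. Low against high end was 0.14 and 0.0142 with those last 2 settings. With lists of equal length, the tree 13 minus tree 14 share of peaks was 0.0458 and of covered length 0.0224. With a library left out, the share of peaks ranged from -0.0818 to 0.0367 and from -0.0435 to 0.0289, covered length from -0.0680 to 0.0415 and from -0.0548 to 0.0127, ends against middle from -0.000881 to 0.0324 and from -0.0365 to 0.0155, and low against high end from -0.36 to -0.11 and from -0.14 to 0.0593, for tree 13 minus tree 14 and for trees 13 and 14 minus tree 4.

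Regions called in all 14 numbered 70 with the most significant 50%, 14 with a -log10 q of at least 10, 88 with lists of equal length, 81 with a 50% overlap and 187 to 246 with a library left out. Regions at an unadjusted p under 0.05 for tree 13 minus tree 14 numbered 1 each with the most significant 50%, with a -log10 q of at least 10 and with peaks of at least 159 bp, 4 with lists of equal length, 5 with a 50% overlap, 0 without branches 13.4 and 14.1, and 10 to 31 with a library left out. For trees 13 and 14 minus tree 4 they numbered 0 with the most significant 50%, 1 without branches 13.4 and 14.1, and 0 to 8 with a library left out. Leaving out libraries also changes which splits of calls can reach that threshold. Without branches 13.4 and 14.1, tree 13 minus tree 14 could reach it only for regions called throughout 1 stem and nowhere in the other. Windows of 1 Mb put 93.3% below the median window of chromosomes 1 to 18. Filters only remove peaks, which moved the number of libraries calling a named region in 41 of 56 recomputations. The cause of the other changes was not tested.

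Same-numbered branches of trees 13 and 14 shared only a number: their deviations correlated between -0.0916 and 0.12 in 5 pairs, and 2 of 10 libraries correlated best with their own number. With the replicate block, the share of peaks gave p = 0.625 by an exact permutation test. The block left 0 regions at an unadjusted p under 0.05. That count was fixed in advance, because an exact two-sided test on 5 pairs cannot go that low. Read depth is unknown, which limits every count of calls.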
